A study of Mus musculus with 8 samples.

Results

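Crossovers hold homologous chromosomes together until they separate at the first meiotic division, and in the mouse most of them are made by a dedicated set of meiotic proteins. The genes described here encode 8 of these: *Msh4*, *Msh5*, *Shoc1*, *Hfm1*, *Tex11*, *Rnf212* and *Ccnb1ip1*, which belong to the ZMM group and its associates, and *Mlh3*, a MutL gene. They were taken by name, and all 8 were found among the 40840 genes counted in each mouse. The ZMM proteins bind and stabilise strand invasion intermediates on the synapsing chromosome axes in zygotene and early pachytene, and Mlh3 then acts at the small number of sites that become crossovers in later pachytene. Loss of any of these genes is known to reduce crossovers and to impair male fertility in mice.

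RNA of the whole testis was sequenced from mice aged 12 days (P12), 4 of them wild type and 4 *Tra2b-cPEko*, the mice of each genotype being lettered A to D, and the study describes the mice as independent animals. Wild type mice carried *Tra2bPE fl/+* with no Cre, so that 1 *Tra2b* allele had a poison exon flanked by LoxP sites. *Tra2b-cPEko* mice were *Tra2b fl/-* with *Vasa-Cre*, a transgene active in germ cells from before birth, and so lacked the poison exon in germ cells. The - allele was inherited with the poison exon already deleted. Sertoli, Leydig and myoid cells of these mice thus kept the poison exon on the floxed allele only. All mice were on a C57BL/6J background. A poison exon is an exon whose inclusion makes the mRNA a target of decay. By this age the first wave of germ cells should have reached late zygotene or the start of pachytene, and the study's methods warn that the exact age of such testes can bring slight variation in cell types. The deposited values are read counts per gene, between 41998195 and 59101569 reads on genes per wild type library and between 36757386 and 49992767 per *Tra2b-cPEko* library. Levels are given as CPM, counts scaled to the size of each library with TMM factors that correct for differences in composition. In whole testis RNA, fewer cells of a type and less RNA per cell cannot be told apart.

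The stretches around the start sites of 4 of these genes are shown because they hold the same short motif. RefSeq promoter sequences (GRCm38.p6, from 250 bases before to 50 after the start) matched 6 of the 8 genes by symbol (*Msh4*, *Msh5*, *Rnf212*, *Hfm1*, *Ccnb1ip1* and *Mlh3*), and *Tex11* and *Shoc1* had no match. The windows were placed on GRCm39 by exact match. Each stretch below is written 5′ to 3′ on the minus strand, the strand of all 8 genes, with the core of the NRF1 motif (GCATGCGC on either strand) in capitals.
Rnf212: cggccttgtacGCATGCGCtggaatgaacg
Hfm1: cggggaaggcGCGCATGCGCgtcgcctcag
Ccnb1ip1: ttgcgcaccacGCATGCGCcctggcggctt
Mlh3: gtgtctcggaaGCGCATGCtcgggagcgcg
The *Rnf212* stretch lies at chr5:108922940-108922969, outside any GENCODE gene, with the motif 65 to 58 bases before the RefSeq start. The *Hfm1* stretch, at chr5:107073755-107073784, holds 2 overlapping matches between 18 and 9 bases before the start and lies in an exon in 6 of the 13 *Hfm1* transcripts it overlaps and in an exon of the lncRNA *Gm72742* on the other strand. In *Ccnb1ip1*, at chr14:51033151-51033180, the motif lies 16 to 23 bases after the start, in exon sequence of 9 of 11 overlapping transcripts. *Mlh3* has 2 RefSeq starts, and its motif, at chr12:85317365-85317394, lies 10 to 3 bases before 1 of them and 18 to 11 before the other. The *Mlh3* stretch lies in an exon of all 15 overlapping transcripts. The core was thus in 4 of the 6 genes, of which *Mlh3* had 2 windows, both with the core. It was in 2.8% of 27025 RefSeq promoter windows of the same length. These were the first window of each gene symbol, and the shares of all windows given below are of the same 27025. The core was chosen for display after the sequences had been seen, so that this is a description only. Of the other letters searched on both strands, the E2F core GGCGGGAA (2.24% of all windows) was in *Msh5* and *Rnf212*, the STRA8 motif CNCCTCAG (7.97%) was in *Msh5* and *Hfm1*, and the CRE motif TGACGTCA (1.88%) was in none of the 6. The MYB core AACNGNC (32.8% of all windows) was in 4 of the 6 (*Msh4*, *Msh5*, *Hfm1* and *Mlh3*), and the CCAAT box (37.9%) was in 3 (*Msh5*, *Rnf212* and *Mlh3*). A match shows only that the letters are present, and the *Hfm1* matches of the NRF1 and STRA8 motifs share no base.

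The gene that was altered was measured first. *Tra2b*, which encodes the splicing activator Tra2β, was at 158, 166, 156 and 176 CPM in wild type mice A to D and at 199.9, 190.3, 192 and 209 CPM in *Tra2b-cPEko* mice A to D. All 4 *Tra2b-cPEko* values were above all wild type values, by a log2 fold change of 0.27 ± 0.05 (SE), with an adjusted p (Benjamini-Hochberg) of 0.0552 in the quasi-likelihood test of edgeR and of 1.95e-04 in DESeq2. The edgeR call thus depends on the settings, with adjusted p from 0.0128 to 0.182 over the alternatives in edgeR and limma-voom. Counts per gene do not show the poison exon, so they do not check the genotype labels. *Tra2a*, the paralogue of *Tra2b*, was at 138, 144, 121 and 111 CPM in wild type and at 69.4, 73.2, 65.1 and 70.4 CPM in *Tra2b-cPEko* mice. It fell by 0.89 ± 0.08 (SE) on the log2 scale (edgeR adjusted p = 0.00231).

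The question for the crossover genes was whether their mRNA differed between P12 *Tra2b-cPEko* and wild type testes. None of the 8 was called different at an adjusted p under 0.05, where edgeR called 30 of 19104 genes tested, or 0.157%. DESeq2, which called 507 of 18149 genes (2.79%), also called none of the 8. At an unadjusted p under 0.05, edgeR gave 4 of the 8, *Ccnb1ip1*, *Rnf212* and *Tex11* lower and *Msh5* higher, against a background of 15.3% of all genes. The direction was thus not common to the group: 4 genes had a log2 fold change below 0 and 4 above, between -0.35 and 0.19, with a median of -0.05 beside -0.0011 over all genes tested. *Rnf212* and *Ccnb1ip1*, the RING finger genes, were the only 2 of the 8 whose values did not overlap between genotypes, both lower in *Tra2b-cPEko*, where 4.18% of all genes did not overlap with lower values and 4.36% with higher values. The plot of CPM by mouse shows all 8.

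**Figure D1:**
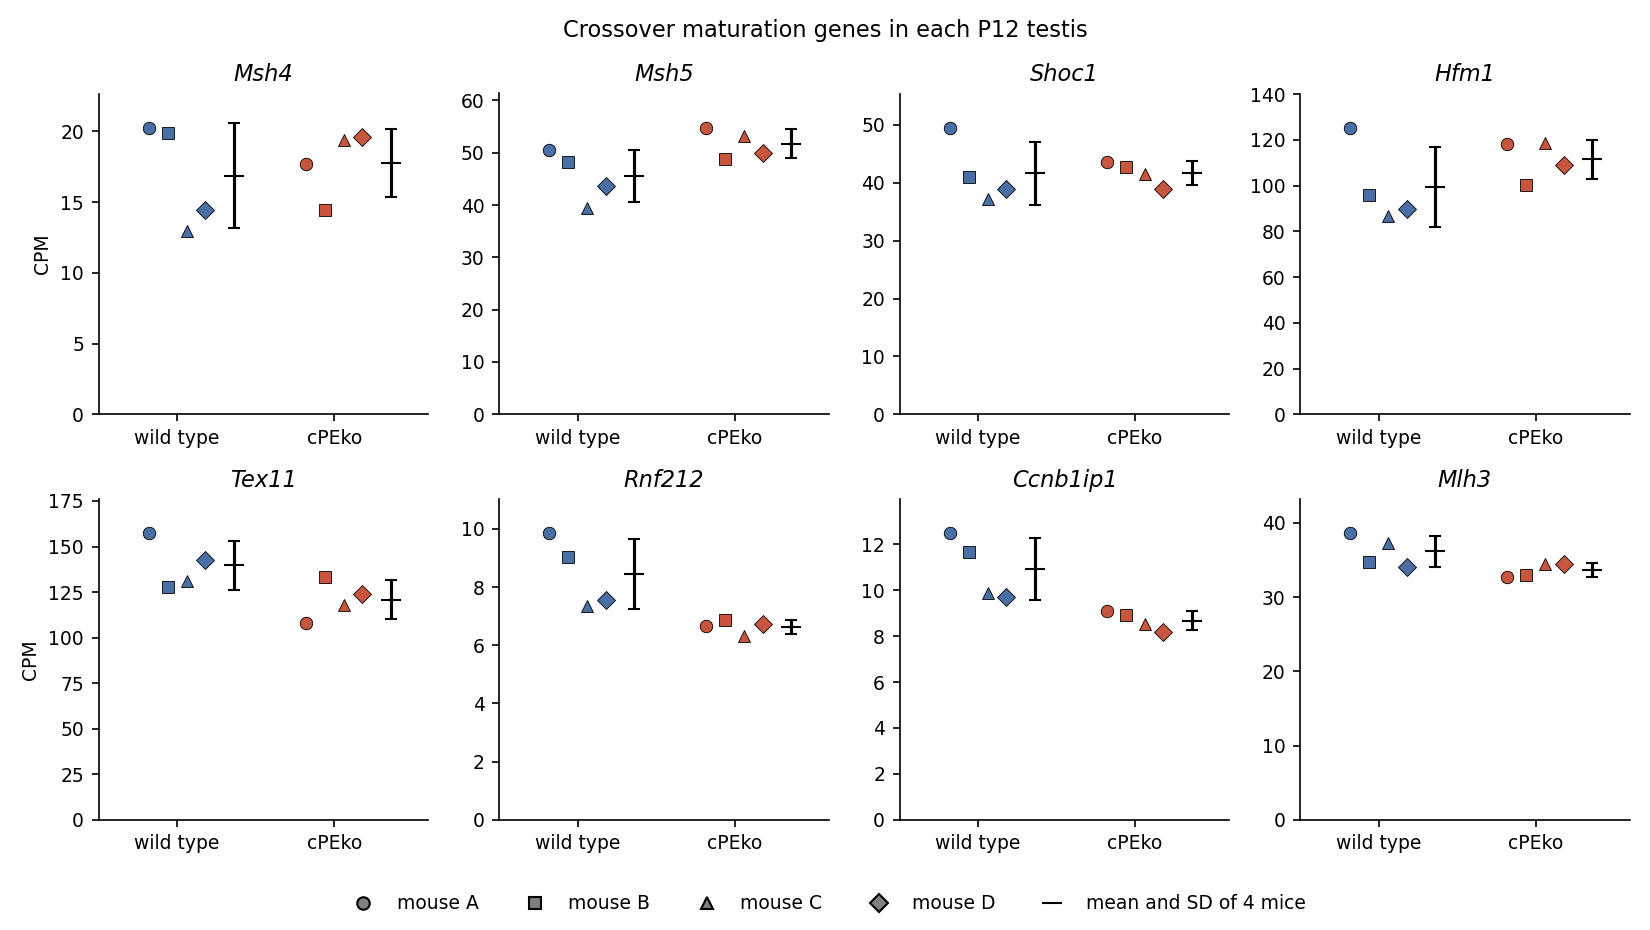
CPM (y axis, from 0) of the 8 genes in each mouse, by genotype (x axis), with symbols for mice A to D and a bar for the mean and SD of 4 mice. *Rnf212* and *Ccnb1ip1* sit lower in all 4 *Tra2b-cPEko* mice than in any wild type mouse, the other 6 genes overlap, and wild type mouse A is the highest wild type point in every panel.

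*Msh4* and *Msh5* encode the partners of MutSγ, a clamp that encircles recombination intermediates. *Msh4* (chromosome 3, 153562786 to 153611775) was at 20.2, 19.9, 12.96 and 14.4 CPM in wild type mice A to D and at 17.7, 14.4, 19.4 and 19.6 CPM in *Tra2b-cPEko* mice A to D. The genotypes overlapped throughout, and within wild type, mice A and B stood above C and D. *Msh4* had the widest spread of the 8 genes, the coefficient of variation being 22.1% among wild type and 13.5% among *Tra2b-cPEko* mice. Its log2 fold change was 0.08 ± 0.16 (SE), with a 95% interval from -0.28 to 0.43 (edgeR adjusted p = 0.859).

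*Msh5* (chromosome 17, 35247581 to 35265769) was at 50.6, 48.3, 39.5 and 43.6 CPM in wild type and at 54.7, 48.8, 53.3 and 50.03 CPM in *Tra2b-cPEko* mice. Only wild type mouse A was within the range of the *Tra2b-cPEko* mice. In edgeR the log2 fold change was 0.19 ± 0.07 (SE), with a 95% interval from 0.03 to 0.35. When each mouse was left out in turn it ranged from 0.12 without wild type mouse C (edgeR unadjusted p = 0.0755) to 0.24 without wild type mouse A, and the unadjusted p was above 0.05 in 4 of the 8 fits. It did not pass edgeR's threshold (adjusted p = 0.260), nor did an exact two-sided permutation test on log2 CPM over the 70 arrangements of the mice (p = 0.0857), which can give no p under 0.0286. *Msh5* overlaps *Vwa7* on the other strand at its 3′ end.

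*Shoc1*, whose product resembles XPF-type nucleases and works with Spo16, lies on chromosome 4 (59043662 to 59138983). It was at 49.5, 41.04, 37.2 and 38.9 CPM in wild type and at 43.6, 42.8, 41.5 and 38.8 CPM in *Tra2b-cPEko* mice. Means were 41.7 ± 5.45 CPM in wild type and 41.7 ± 2.08 CPM in *Tra2b-cPEko* mice (SD, n = 4 each), the closest of the 8 genes. The 95% interval of the log2 fold change ran from -0.17 to 0.18 (edgeR adjusted p = 0.993).

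*Hfm1* encodes a DNA helicase, the mouse counterpart of yeast Mer3 (chromosome 5, 106988058 to 107074187). It was at 125, 95.8, 86.6 and 89.9 CPM in wild type and at 118, 100.5, 118 and 109 CPM in *Tra2b-cPEko* mice. Wild type mice B, C and D were below all 4 *Tra2b-cPEko* mice, and wild type mouse A was above all of them. The log2 fold change was 0.17 ± 0.12 (SE; edgeR adjusted p = 0.522). When each mouse was left out in turn it ranged from 0.11 without wild type mouse C (edgeR unadjusted p = 0.403) to 0.30 without wild type mouse A (edgeR unadjusted p = 6.9e-04, adjusted p = 0.153).

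*Tex11*, an X-linked gene (99882253 to 100103273) for a scaffold protein with TPR repeats, is known from infertile males. It was at 157, 128, 131 and 143 CPM in wild type and at 108, 133, 118 and 124 CPM in *Tra2b-cPEko* mice. *Tra2b-cPEko* mouse B was above wild type mice B and C, and the other 3 *Tra2b-cPEko* mice were below all wild type mice. The log2 fold change was -0.21 ± 0.08 (SE), with a 95% interval from -0.37 to -0.04 (edgeR adjusted p = 0.239).

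*Rnf212* and *Ccnb1ip1* encode RING finger proteins that act in opposite ways on recombination complexes: Rnf212 is tied to SUMO and holds ZMM proteins at selected sites, and Ccnb1ip1, also called Hei10, is a ubiquitin ligase that helps to remove Rnf212. *Rnf212* (chromosome 5, 108877156 to 108922848) was at 9.84, 9.04, 7.36 and 7.54 CPM in wild type mice A to D and at 6.66, 6.86, 6.31 and 6.73 CPM in *Tra2b-cPEko* mice A to D. The *Tra2b-cPEko* mice lay close together, with a coefficient of variation of 3.58%, below wild type mouse C, the lowest of its group. The mean was 21.4% below wild type, a log2 fold change of -0.35 ± 0.10 (SE) with a 95% interval from -0.57 to -0.12. It did not pass the threshold (edgeR adjusted p = 0.167, unadjusted p = 0.00586), and the exact permutation p was 0.0286, the smallest that 4 against 4 can give. Counts were low, from 247 to 445 reads, and at 247 reads counting error alone is 6.36%.

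*Ccnb1ip1* (chromosome 14, 51026696 to 51045263) was at 12.5, 11.7, 9.89 and 9.71 CPM in wild type and at 9.10, 8.91, 8.51 and 8.17 CPM in *Tra2b-cPEko* mice. All *Tra2b-cPEko* values were again below all wild type values, and wild type mice A and B were again above C and D. The log2 fold change was -0.33 ± 0.09 (SE), with a 95% interval from -0.54 to -0.13. It missed the threshold in edgeR (adjusted p = 0.148, unadjusted p = 0.00412) and in DESeq2 (adjusted p = 0.0517), with an exact permutation p of 0.0286. *Ccnb1ip1* overlaps *Parp2* on the other strand and the RNA gene *Rpph1* on its own strand, and how the counting treated strand is not given in the sources used here.

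*Mlh3*, a MutL family gene for a nuclease that acts late in crossover formation (chromosome 12, 85281238 to 85317405), was at 38.6, 34.8, 37.2 and 34.1 CPM in wild type and at 32.7, 33.01, 34.4 and 34.5 CPM in *Tra2b-cPEko* mice. Mouse D of wild type was within the *Tra2b-cPEko* range, and the other 3 wild type mice were above it. The log2 fold change was -0.10 ± 0.05 (SE), with a 95% interval from -0.22 to 0.01 (edgeR adjusted p = 0.387). The spread of *Mlh3* was the narrowest of the 8 genes, the coefficients of variation being 5.81% among wild type and 2.83% among *Tra2b-cPEko* mice.

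Levels of different genes were compared per length, as CPM per kb of exon from the GENCODE vM39 annotation. *Tex11* was highest at 38.5 ± 3.67 in wild type (SD, n = 4), followed by *Hfm1* at 12.2 ± 2.16, *Msh5* at 7.94 ± 0.865, *Shoc1* at 6.90 ± 0.904, *Rnf212* at 5.12 ± 0.726, *Mlh3* at 3.23 ± 0.188, *Msh4* at 2.45 ± 0.541 and *Ccnb1ip1* at 1.68 ± 0.208. The ranges of 4 wild type mice overlapped only between *Msh5* and *Shoc1* and between *Msh4* and *Ccnb1ip1* among neighbours in this order. The order was the same in *Tra2b-cPEko* mice, from *Tex11* at 33.4 ± 2.91 to *Ccnb1ip1* at 1.33 ± 0.064, and there no neighbours overlapped. With the length of the longest transcript in place of all exons, the order in wild type was the same, with overlap between *Hfm1* and *Msh5*, *Shoc1* and *Rnf212*, and *Mlh3* and *Msh4*. On that length *Msh4* (5.34 ± 0.719) stood above *Mlh3* (4.77 ± 0.135) in *Tra2b-cPEko* mice (SD, n = 4 each), and their ranges overlapped.

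**Figure D2:**
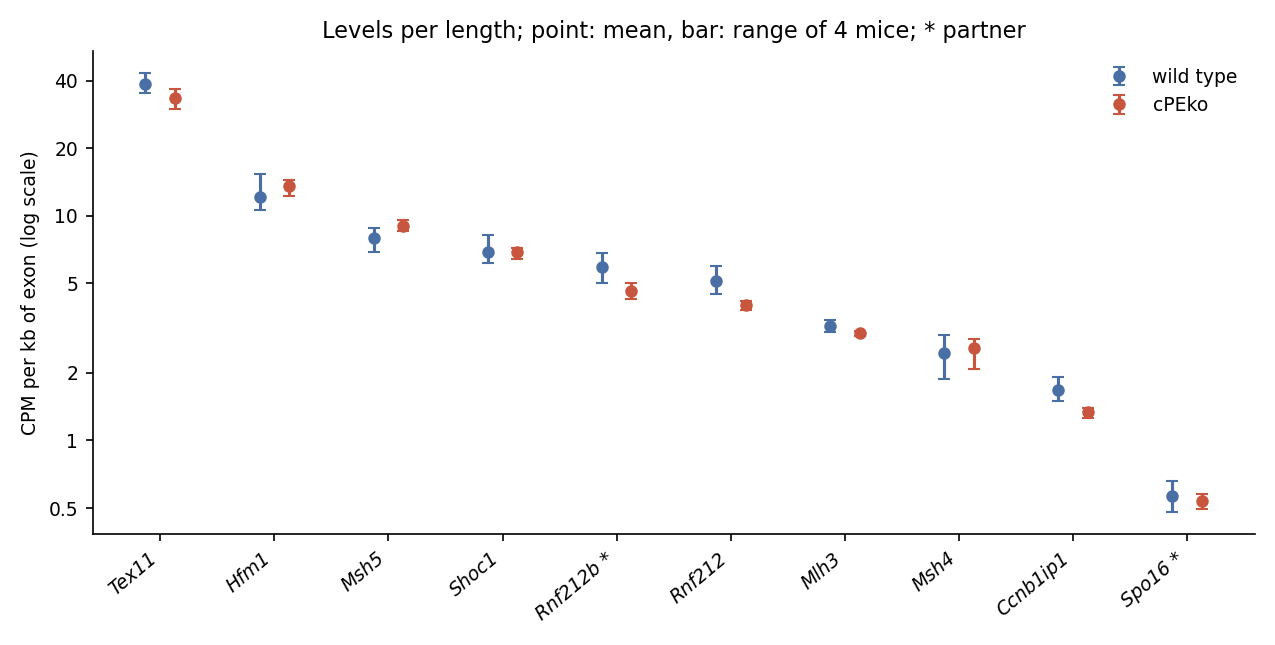
CPM per kb of exon (log y axis) of the 8 genes and 2 partner genes (marked with asterisks), ordered by the wild type mean, with points for the mean and bars for the range of 4 mice of each genotype. *Tex11* stands above all others, and the order of the 8 genes is the same in both genotypes.

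Proteins of this pathway work in complexes, so the ratio of the counts of partner genes was taken within each library, where no scaling enters. The *Msh4* to *Msh5* ratio was 0.400, 0.411, 0.328 and 0.331 in wild type mice A to D and 0.323, 0.295, 0.364 and 0.391 in *Tra2b-cPEko* mice A to D. The genotypes overlapped, and the log2 ratio was lower by 0.10 in *Tra2b-cPEko*, with SDs of 0.17 and 0.18 (exact permutation p = 0.429, adjusted over the 3 ratios p = 0.643). The *Shoc1* to *Spo16* ratio was 8.49 ± 0.485 against 8.97 ± 0.708 (exact permutation p = 0.314, adjusted p = 0.643), with *Spo16* listed as *1700028K03Rik*, a gene that overlaps *Gm42669* on its own strand. The *Rnf212* to *Ccnb1ip1* ratio was 0.789, 0.775, 0.745 and 0.777 in wild type and 0.731, 0.771, 0.741 and 0.823 in *Tra2b-cPEko* mice. Its mean was 0.771 ± 0.019 and 0.767 ± 0.041 (exact permutation p = 0.743, adjusted p = 0.743), so the lower values of both RING finger genes left their ratio within its spread.

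**Figure D3:**
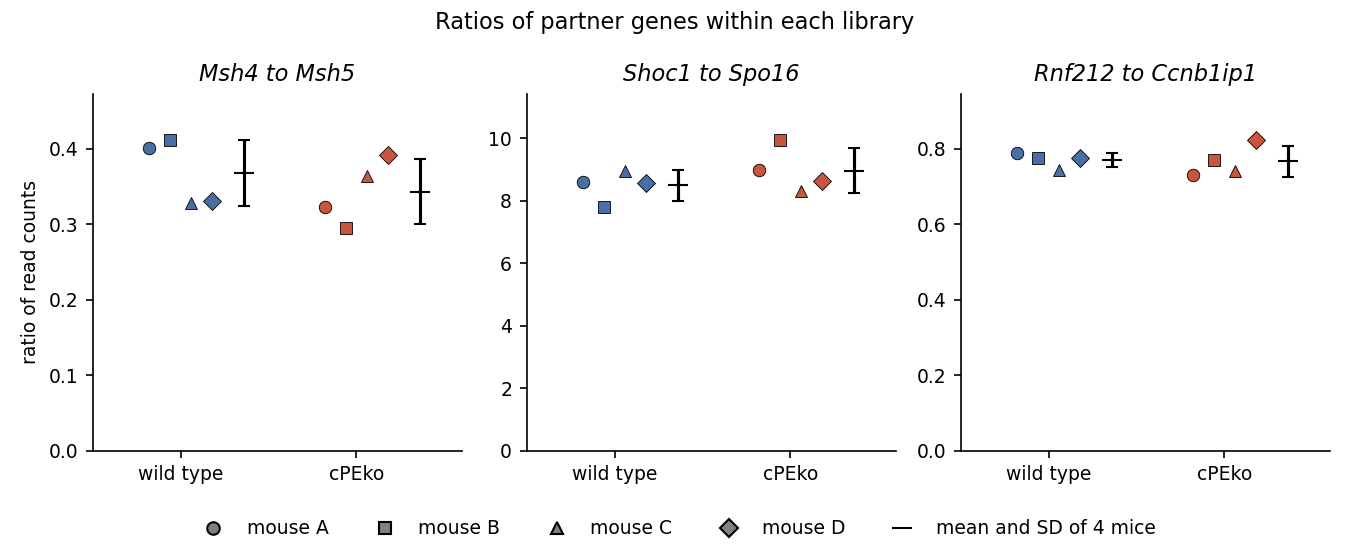
Ratio of read counts of 2 genes within each library (y axis, from 0) by genotype, with symbols for mice A to D and a bar for the mean and SD of 4 mice. All 3 ratios overlap between genotypes, and the *Rnf212* to *Ccnb1ip1* ratio varies least in wild type mice.

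Partners of the 8 genes were read from a list of 6. All 6 had log2 fold changes below 0, with a median of -0.22, none was called, and 3 had an unadjusted p under 0.05, all lower, where 7.07% of all genes were lower at that p. *Rnf212b*, a paralogue of *Rnf212* that is also a RING finger gene, was at 16.6, 16.3, 12.2 and 12.3 CPM in wild type and at 11.9, 10.4, 12.1 and 10.7 CPM in *Tra2b-cPEko* mice. All *Tra2b-cPEko* values were below all wild type values, mouse C of each genotype by a margin of under 0.1 CPM, and the log2 fold change was -0.34 ± 0.11 (SE; edgeR adjusted p = 0.198). The other 2 at that p were *Prr19* (-0.24, edgeR adjusted p = 0.222) and *Redic1* (listed as *CN725425*, -0.19, edgeR adjusted p = 0.288), both crossover factors, named here after their values were seen. *Spo16* was at 4.92 ± 0.716 CPM in wild type and 4.66 ± 0.321 CPM in *Tra2b-cPEko* mice (SD, n = 4 each), a log2 fold change of -0.07 (edgeR adjusted p = 0.810).

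The remaining steps of the pathway were read from 4 lists of 27 genes, and none of these was called by edgeR, while 3 were lower and 1 was higher at an unadjusted p under 0.05, a share close to the 15.3% of all genes. Of 6 factors that bind single-stranded DNA, 2 were lower at an unadjusted p under 0.05 (7.07% of all genes were), and the list's median log2 fold change was -0.06. *Rpa2*, a subunit of the RPA complex found in all dividing cells, was at 108, 109, 101 and 105 CPM in wild type and at 95.5, 91.5, 85.7 and 91.9 CPM in *Tra2b-cPEko* mice. The groups did not overlap, with a log2 fold change of -0.21 ± 0.05 (SE; edgeR adjusted p = 0.0892, DESeq2 adjusted p = 0.00302). *Rpa1*, named after its values were seen, had a log2 fold change of -0.13 and also passed in DESeq2 alone (DESeq2 adjusted p = 0.013, edgeR adjusted p = 0.142). Of the other MutS and MutL genes and *Exo1* (6 genes, median 0.02), *Pms2*, a mismatch repair gene, was at 68.6 ± 3.55 CPM in wild type and 76.5 ± 1.56 CPM in *Tra2b-cPEko* mice (SD, n = 4 each), without overlap, at a log2 fold change of 0.16 (edgeR adjusted p = 0.160). Of 6 structure-selective nuclease genes (median 0.02), *Mus81*, which resolves crossovers outside the ZMM pathway, had the lowest p, at a log2 fold change of -0.18 ± 0.07 (SE; edgeR adjusted p = 0.249). Of 9 helicase and dissolution genes that limit crossovers (median -0.04), none reached an unadjusted p under 0.05, and *Rmi2* came closest at -0.18 ± 0.10 (SE; edgeR adjusted p = 0.436).

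**Figure D4:**
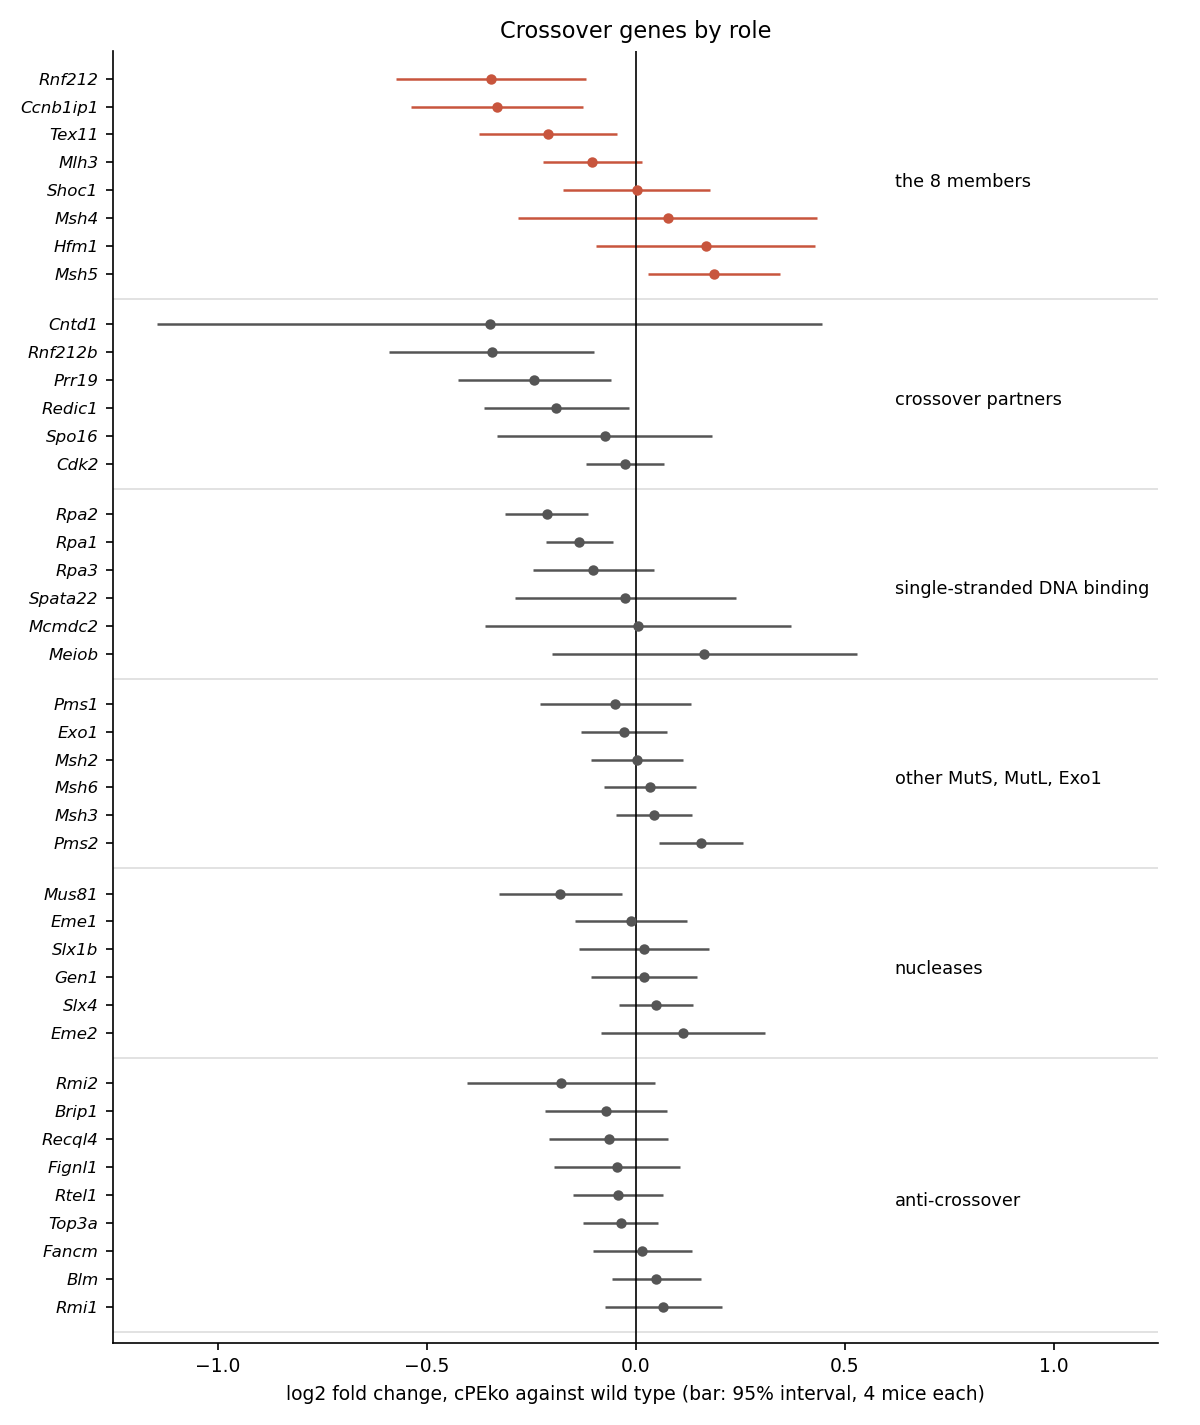
Log2 fold change (x axis) of *Tra2b-cPEko* against wild type with its 95% interval for each gene (y axis), from 4 mice each, in lists by role with the 8 genes at the top. The intervals of *Rnf212*, *Ccnb1ip1* and *Tex11* lie below 0 and that of *Msh5* above it before adjustment for 19104 genes, and *Cntd1* has the widest interval.

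Levels of the 8 genes differed among wild type mice as well. Wild type mouse A had the highest CPM of its genotype for all 8 genes, and the highest of all 8 mice for 7, with *Msh5* the exception. Wild type mouse C had the lowest CPM of its genotype for 5 genes, *Msh4*, *Msh5*, *Rnf212*, *Hfm1* and *Shoc1*. In *Tra2b-cPEko* mice no animal was highest for more than 3 genes. Over the 8 mice, the genes whose log2 CPM was most like the mean standardised level of the 8, among the 15469 genes that averaged 1 CPM or more, were *Spdya* (Pearson r = 0.98), *Dmc1* (0.97), *Smc4* (0.97), *Gm47814* (0.97) and *A230107N01Rik* (0.97). These r values are descriptions over 8 mice that share library and depth with the genes themselves, and each of these 5 genes was highest in wild type mouse A.

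Markers of spermatocytes differed among the same mice. The 26 genes of leptotene and zygotene spermatocytes summed to 2925, 2607, 2199 and 2294 CPM in wild type mice A to D. In *Tra2b-cPEko* mice A to D they summed to 2316, 2329, 2331 and 2252 CPM. The *Tra2b-cPEko* sums lay within the wild type range, and wild type mice A and B were highest. Of the 26 genes, 8 were lower and 1 higher at an unadjusted p under 0.05, beside 7.07% and 8.22% of all genes, none was called by edgeR, and the median log2 fold change was -0.16. DESeq2, which called 2.79% of all genes, called 3 of them lower, *Stag3*, *Majin* and *Mnd1* (DESeq2 adjusted p = 0.0256, 0.0462 and 0.0208). *Majin* and *Mnd1* were named after their values were seen. The most abundant, *Stag3*, a meiotic cohesin gene, was at 377 ± 44.4 CPM in wild type and 305 ± 26.0 CPM in *Tra2b-cPEko* mice (SD, n = 4 each). The 19 pachytene genes summed to 773, 815, 456 and 536 CPM in wild type and to 546, 493, 593 and 583 CPM in *Tra2b-cPEko* mice, with *Hspa2* the most abundant, at 127 ± 36.5 and 122 ± 14.7 CPM. Here too wild type mice A and B were highest, and 3 of the 17 genes tested were lower at an unadjusted p under 0.05, beside the same 7.07%, with a median log2 fold change of -0.26. DESeq2 called 1 of these, *Spata16*, lower (DESeq2 adjusted p = 0.0209), beside the same 2.79% of all genes, and edgeR called none.

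**Figure D5:**
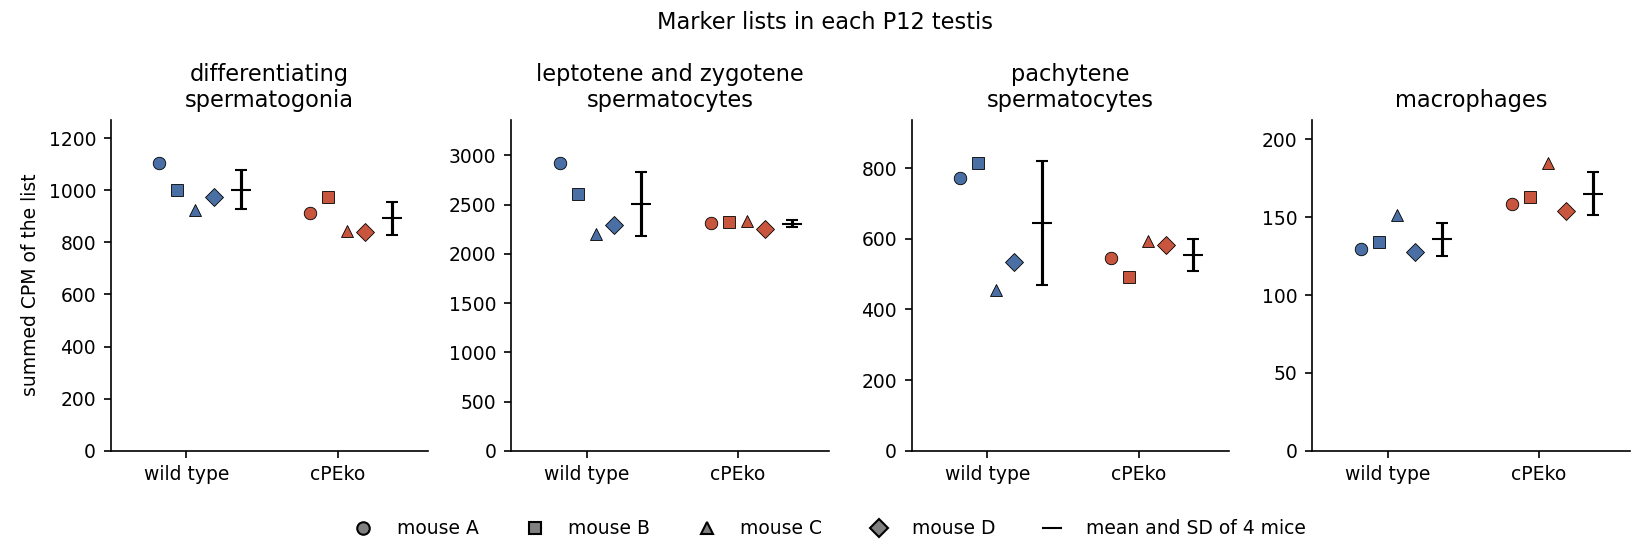
Summed CPM (y axis, from 0) of 4 marker lists in each mouse by genotype, with symbols for mice A to D and a bar for the mean and SD of 4 mice. Wild type mice A and B are highest for the spermatocyte lists, and every *Tra2b-cPEko* mouse is above every wild type mouse for the macrophage list.

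The 9 genes of differentiating spermatogonia were all below 0 in log2 fold change, as were 9615 of the 19104 genes tested. Their median was -0.15, and *Meiosin* was most abundant at 263 ± 47.8 and 237 ± 38.9 CPM. At an unadjusted p under 0.05 in edgeR, 2 of them were lower, where 7.07% of all genes were. EdgeR called 1 of them, where it called 0.157% of all genes. The mean log2 CPM of the 9 was 6.55, 6.49, 6.41 and 6.50 in wild type mice A to D and 6.33, 6.39, 6.24 and 6.30 in *Tra2b-cPEko* mice A to D, without overlap, whereas their summed CPM overlapped. The called gene was *Sohlh1*, named after its values were seen, which fell by 0.34 ± 0.05 (SE) on the log2 scale (edgeR adjusted p = 0.0341). Undifferentiated spermatogonia had a median of -0.01 among 12 genes, 6 above 0 and 6 below. Of these, 2 were lower at an unadjusted p under 0.05 in edgeR (7.07% of all genes were). Their sums were 299.96, 296, 350.4 and 347 CPM in wild type mice A to D, lowest in A and B. In *Tra2b-cPEko* mice A to D the sums were 314, 325, 306 and 321 CPM. *Zbtb16* was most abundant at 87.4 and 89.8 CPM. Spermatid genes were near 0, with summed levels from 0.545 to 1.10 CPM and *Prm2* and *Tnp2* at 0 in every mouse, and the highest of them, *Tssk1*, was at 0.477 CPM in wild type. Defining markers of the somatic cells of the testis were present. The median log2 fold change was -0.05 for Sertoli cell genes (12 genes, *Clu* at 3643 and 3798 CPM) and 0.24 for Leydig cell genes (8 genes, *Nr5a1* at 213 and 206 CPM). It was 0.10 for peritubular myoid genes (7 genes, *Acta2* at 488 and 515 CPM) and 0.05 for endothelial genes (7 genes, *Cdh5* at 74.05 and 76.5 CPM). Leydig cell genes went both ways, 5 above 0 and 3 below, from -0.54 to 0.57. All 7 peritubular myoid genes were above 0, as were 9489 of the 19104 genes tested. At an unadjusted p under 0.05 in edgeR, 1 Sertoli cell and 1 Leydig cell gene were lower (7.07% of all genes were). At that p, 1 Leydig cell and 2 peritubular myoid genes were higher (8.22% of all genes were). Without overlap, 2 Sertoli cell genes were lower and 1 Leydig cell gene higher (4.18% and 4.36% of all genes). Macrophage genes summed to 129.8, 134, 151 and 128 CPM in wild type and to 158, 163, 185 and 154 CPM in *Tra2b-cPEko* mice, without overlap, with 6 of 8 higher at an unadjusted p under 0.05 (8.22% of all genes were higher at that p), none called by edgeR, and *Mrc1* at 39.5 and 49.2 CPM. DESeq2, which called 2.79% of all genes, called *Csf1r* and *Cx3cr1* of the macrophage list and *Lhcgr* of the Leydig cell list higher (DESeq2 adjusted p = 0.0400, 0.0256 and 0.00851). These genes and *Spata16* were also named after their values were seen.

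The 8 genes were therefore also read against the leptotene and zygotene sum of the same mouse, a scale chosen after the values were seen and given without a test. *Rnf212* was between 0.329% and 0.347% of that sum in wild type mice and between 0.271% and 0.299% in *Tra2b-cPEko* mice, and *Ccnb1ip1* was between 0.423% and 0.450% and between 0.363% and 0.393%. Both stayed lower in all 4 *Tra2b-cPEko* mice, where 0.691% of all genes were lower without overlap on this scale. *Msh5* was at 1.73%, 1.85%, 1.79% and 1.90% in wild type and at 2.36%, 2.10%, 2.29% and 2.22% in *Tra2b-cPEko* mice. *Hfm1* was at 4.28%, 3.67%, 3.94% and 3.92% in wild type and at 5.10%, 4.31%, 5.08% and 4.85% in *Tra2b-cPEko* mice. These genes and *Shoc1* (1.66% ± 0.059 in wild type, 1.81% ± 0.068 in *Tra2b-cPEko*, SD, n = 4 each) were higher without overlap, where 5.06% of all genes were, while *Msh4*, *Tex11* and *Mlh3* overlapped. With the mean log2 level of the list as a covariate in edgeR, none of the 8 was called, and the log2 fold change was 0.31 for *Msh5* (unadjusted p = 2.7e-04, adjusted p = 0.116), 0.34 for *Hfm1*, 0.31 for *Msh4* (unadjusted p = 0.0539, adjusted p = 0.515), 0.15 for *Shoc1*, -0.08 for *Mlh3*, -0.15 for *Tex11*, -0.18 for *Rnf212* and -0.19 for *Ccnb1ip1*. The genes with an unadjusted p under 0.05 in that fit were 3 higher (*Msh5*, *Hfm1* and *Shoc1*) and 1 lower (*Ccnb1ip1*), where 5.86% of all genes were higher and 3.97% lower, with *Rnf212* at 0.0675 and *Tex11* at 0.105 in edgeR. Whether cell composition had a part in the differences between genotypes was not tested.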

How the data were processed

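RNAseq of whole P12 testes from 8 mice was analysed. The authors deposited raw read counts, 1 table per mouse, and the submitters' processing notes name HISAT2 2.2.1, SAMtools 1.7.1, HTSeq 2.0.2 and deepTools 3.5.1, with GRCm39. The study's methods name Salmon for quantification, but the tables end with summary lines of the kind HTSeq writes. How the counting treated strand is not given in the sources used here. Lines for reads outside genes were left out, and reads on genes were 66.4% to 69.0% of each table. The 8 genes and all lists were chosen with earlier results of these data known. Counts were fitted in R 4.3.3 with edgeR 4.0.16 (filterByExpr with a least count of 10 and a least total of 15, TMM, robust quasi-likelihood F-test, genotype as the only term), with Benjamini-Hochberg adjustment over 19104 genes and a threshold of 0.05. DESeq2 1.42.0 (default settings), limma-voom (limma 3.58.1), other scaling factors and filters, a replicate block, a covariate and fits without each mouse were alternatives. The code was tested on simulated data. Named genes were the 8, *Spo16*, *Rnf212b*, the lowest p of each list, *Tra2b*, *Tra2a*, the 5 genes of most similar pattern and the most abundant marker of each list. None of the 8 had a near-identical copy (BLAST+ 2.17.0, 95% identity over 50% of a transcript). Gene lengths come from GENCODE vM39, not the NCBI annotation used in counting. Pairs of libraries of a genotype differed by 6.24 to 19.1 times counting noise, so none is a copy of another. Splicing of these genes was not analysed here, and results for 1 other gene are not reported here.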

Additional observations from a re-analysis of the deposited data

How the results depend on the processing

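Under the 17 alternatives no crossover gene of the 8 passed the adjusted threshold, and *Rnf212*, *Ccnb1ip1*, *Tex11* and *Mlh3* kept log2 fold changes below 0, and *Msh5* and *Hfm1* above 0, in all of them. *Rnf212* ranged from -0.41 to -0.18 (adjusted p from 0.072 to 0.534) and *Ccnb1ip1* from -0.39 to -0.19 (adjusted p from 0.0517 to 0.490). The number of genes with an unadjusted p under 0.05 was between 2 and 5 of the 8 when a mouse was left out, where the share of all genes was between 10.4% (without *Tra2b-cPEko* mouse C) and 19.6% (without wild type mouse C), and 2 without *Tra2b-cPEko* mouse A, where *Rnf212* and *Ccnb1ip1* remained. *Msh4* turned to -0.032 without wild type mouse C and was 0.17 without wild type mouse A and 0.31 with the covariate, its highest. *Shoc1*, at 0.00, turned to -1.4e-04 in DESeq2, -0.0059 without a filter, and to -0.0032, -0.050 and -0.033 without wild type mice B, C and D and -0.022 and -0.012 without *Tra2b-cPEko* mice A and B, and was 0.094 without wild type mouse A and 0.15 with the covariate, its highest. With the covariate, *Spo16* turned to 0.089, and it ranged from -0.15 without wild type mouse C to 0.0069 without wild type mouse A. In the edgeR fit with the covariate, *Rnf212b* was at -0.15 (unadjusted p = 0.125) and *Mus81* at -0.096 (unadjusted p = 0.167). In that fit *Rpa2* was at -0.18 (unadjusted p = 0.00386) and *Pms2* at 0.21 (unadjusted p = 6.1e-04). As a share of the leptotene and zygotene sum, the log2 difference of *Mlh3* was 0.0079.

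The 30 genes called over the whole table became 58 with upper-quartile factors, 507 in DESeq2, 11 in limma-voom, 123 without a filter, 14 with a mean count of at least 50, 12 without robust estimation and 1 with the covariate. Without a mouse they ranged from 3 (*Tra2b-cPEko* mouse D) to 84 (wild type mouse C), and the causes were not tested. *Tra2b* also passed in edgeR with upper-quartile factors (adjusted p = 0.0318), without a filter (0.0128) and without wild type mouse D (0.0488) or *Tra2b-cPEko* mouse B (0.0487). Of the 33 other pathway genes, DESeq2, which called 2.79% of all genes, called 2 (*Rpa1* and *Rpa2*), and the fit without a filter called 1 (*Rpa2*). Without a mouse, the log2 difference of the ratios ranged from -0.17 to -0.03 (*Msh4* to *Msh5*), 0.03 to 0.11 (*Shoc1* to *Spo16*) and -0.045 to 0.012 (*Rnf212* to *Ccnb1ip1*, above 0 without wild type mouse A or *Tra2b-cPEko* mouse A or C). With 3 against 4 mice the exact test can give no p under 0.0571.

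Replicate letters are not stated to pair the mice. Correlations of same-letter deviations lay between -0.14 and 0.12, and those of different letters between -0.10 and 0.15. Such correlations cannot exclude a shared litter or batch. With the letter as a replicate block, edgeR called 67 genes, *Tra2b* among them (adjusted p = 0.0452) and none of the 8, and the exact sign-flip p of the ratios was 0.625 for each (4 pairs allow no p below 0.125), with the same differences of -0.10, 0.08 and -0.01, since 1 mouse per letter fixes them.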
